A study of Mus musculus with 9 samples.

Results

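The genes described are 33 members of cholesterol and fatty acid synthesis, taken by name from the 49585 genes in each count table of mouse skin RNA. They fall into 18 enzymes of the sterol arm, 11 enzymes of the fatty acid arm, and 4 genes of regulation and sterol transport, grouped by function. All 33 were read well enough to be among the 14415 genes tested. Whole skin was sequenced as total RNA in 9 libraries, 3 to a group. The first group is labelled IL-6 -/- (IL-6 KO) with strain C57BL/6, the second is BALB/c wild type, and the third is C57BL/6 wild type. All mice came at 4 to 5 weeks of age, began the study at 6 weeks, were shaved on day 0, were left untreated for 7 days, and gave skin on day 8. The protocol names 6 IL-6 KO mice and 3 of each other strain, and does not tie a library to a mouse; the spread that p-values rest on is that among libraries and may be technical. The design of the IL-6 allele, and the sex of the mice, are not stated in the labels.

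Cholesterol is built from acetyl-CoA through mevalonate, isoprenoid diphosphates, squalene and lanosterol, by enzymes of the cytosol, endoplasmic reticulum and peroxisome. Long-chain fatty acids are built from the same acetyl-CoA by carboxylation to malonyl-CoA and repeated condensation, after which elongases lengthen the chain and desaturases add double bonds. The transcription factor SREBP-2, the product of Srebf2, mainly drives the sterol genes, and SREBP-1c, a product of Srebf1, mainly drives the fatty acid genes; Insig proteins hold both in the endoplasmic reticulum when sterols are plentiful. In skin, both arms serve the epidermal barrier, the sebaceous gland, the hair follicle and the dermal fat.

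Il6, read as a check of the labels, had 6, 24 and 1 exon reads in the 3 IL-6 KO-labelled libraries, against 0, 2 and 0 in BALB/c and 2, 1 and 0 in C57BL/6. Reads of Il6 were thus present under the IL-6 KO label. The design of the allele is not stated, so these counts cannot tell whether the label holds. The group is therefore called the IL-6 KO-labelled libraries, and "IL-6 KO replicate" names one of them. Depth was 3843953 to 4476346 total exon reads in the IL-6 KO-labelled libraries, 6115739 to 6242332 in BALB/c and 6083876 to 6882193 in C57BL/6. Lower depth thus went with the IL-6 KO label, and the design cannot tell the 2 apart. Levels are CPM, reads scaled to the library's total exon reads times its TMM scaling factor, unless said to be per kilobase of exon (RPKM). The factors were 0.986 to 1.10 in the IL-6 KO-labelled libraries, 0.985 to 1.01 in BALB/c and 0.887 to 1.03 in C57BL/6. Every level compared thus includes them. A gene is called higher or lower when its adjusted p from edgeR's quasi-likelihood test was under 0.05; fold changes are log2 values ± SE. One BALB/c library, replicate 2, had 130 reads of Xist, where the other 8 had 5 or fewer.

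Marker genes of some other cells differed between the IL-6 KO-labelled libraries and C57BL/6, where 35.2% of all genes tested were called. The hair, proliferation, skeletal muscle and endothelial lists were called well above that share. The brown adipocyte list, at 37.5%, was near it, and the other lists, at 6.67% to 22.2%, were below it. Between BALB/c and C57BL/6, no marker list had more than 2 called members. Of 25 hair shaft and matrix markers, 24 were higher and none lower in the IL-6 KO-labelled libraries than in C57BL/6, with summed levels of 70391, 17001 and 48810 CPM against 851, 377 and 165 CPM. Of 12 proliferation markers 11 were higher, with sums of 384 to 868 CPM against 138 to 219 CPM in C57BL/6. Of 15 skeletal muscle markers 14 were lower, with sums of 11631 to 13167 CPM against 66627 to 116496 CPM. The 15 white adipocyte markers summed to 3010, 6030 and 2216 CPM against 9388, 7769 and 11153 CPM, with 1 member lower. Of 10 endothelial markers 9 were lower. Of 18 sebocyte markers tested 3 were higher and 1 lower, and their sums overlapped, at 2334 to 3324 CPM against 1992 to 2985 CPM. Large parts of those sums were Scd1, at 468, 1444 and 678 CPM against 1008, 1616 and 2076 CPM, and Fabp5. Fabp5 had 1213, 721 and 1242 CPM against 145, 191 and 127 CPM. The median log2 fold change of the list was −0.26, with 7 of 18 above 0. The remaining lists had few called members: 2 higher and 1 lower of 15 interfollicular keratinocyte markers, 2 lower of 12 fibroblast markers, and 1 lower of 10 leukocyte markers tested. Of 8 brown adipocyte markers tested, a list made after the data were seen, 3 were lower, with sums of 86.0 to 99.3 CPM against 196 to 343 CPM. Whole skin cannot tell more cells of a type from more RNA per cell, and the part of these cells in the results below was not tested.

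**Figure D1:**
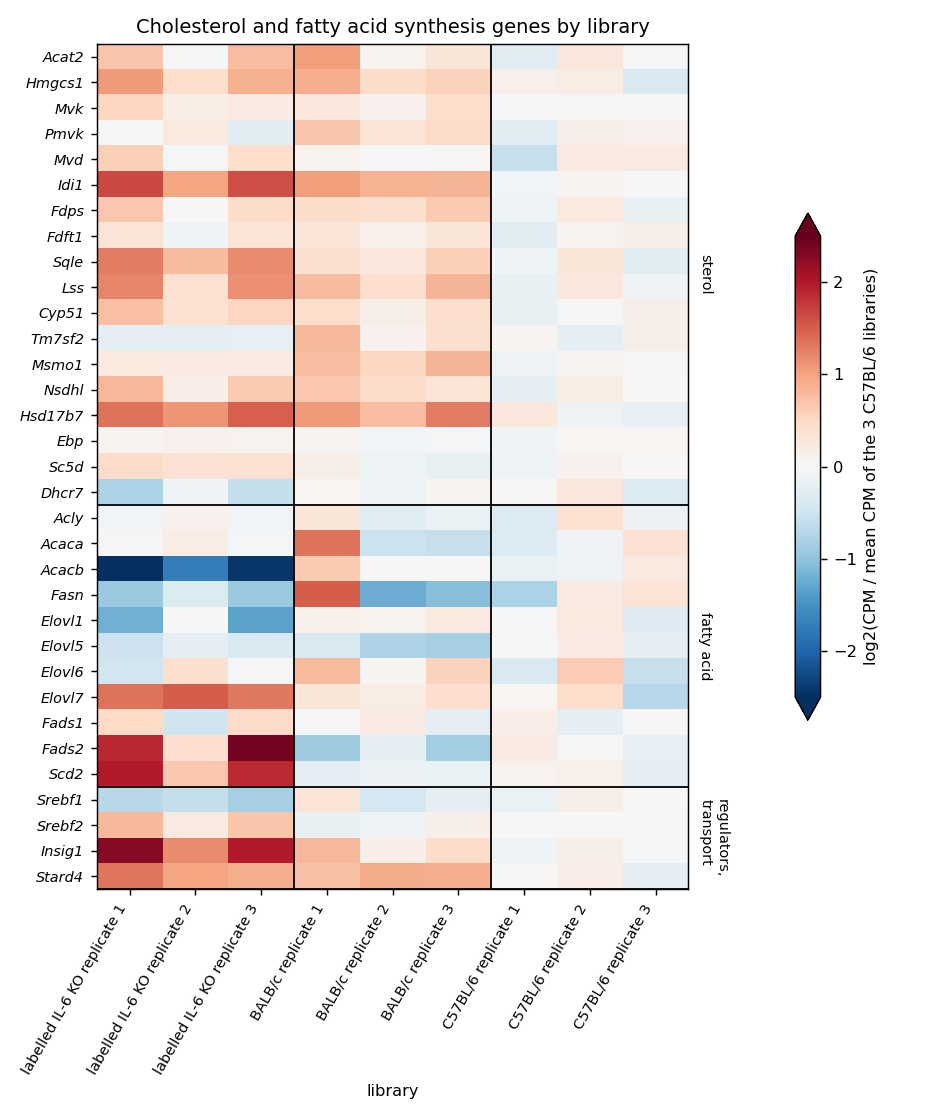
Level of each of the 33 members (rows, by arm) in each of the 9 libraries (columns), as log2 of its CPM over the mean of the 3 C57BL/6 libraries; colours stop at 2.5 in either direction. Idi1, Hsd17b7 and Stard4 are above the C57BL/6 mean in all 6 libraries of the other groups, Scd2 and Insig1 are highest in IL-6 KO replicates 1 and 3, and Fasn and Acaca are highest in BALB/c replicate 1.

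In the IL-6 KO-labelled libraries against C57BL/6, the called genes of the sterol arm were all higher, and those of the fatty acid arm went both ways. Of the 18 sterol genes 8 were higher and none lower. At an unadjusted p under 0.05, edgeR gave 9 higher and 1 lower, where 6621 of all 14415 genes tested passed in either direction. DESeq2 after adjustment gave 8 higher and none lower, where it called 5419 genes in all. Of the 11 fatty acid genes 3 were higher and 1 lower. Over all 33 members 16 were called, 14 of them higher, where 35.2% of all genes tested were called, 19.2% higher and 16.0% lower. The median log2 fold change was 0.40 over the sterol arm and 0.0042 over the fatty acid arm, beside 0.011 over all genes tested. Scaling by library size alone, without TMM factors, moved the median of all genes to 0.15 and the share of calls that were higher to 67.7%, where TMM gave 54.6%.

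Hmgcs1 (chr13:119690462-119708086, GRCm38 as are all positions), the synthase that makes HMG-CoA, stood at 404, 261 and 358 CPM in the IL-6 KO-labelled libraries against 209.9, 220.1 and 147 CPM in C57BL/6. The groups did not overlap, and the log2 fold change was 0.83 ± 0.22 (adjusted p = 0.0180). Idi1 (chr13:8885501-8892451), which isomerizes isopentenyl diphosphate, had 148, 94.5 and 145 CPM against 45.6, 49.6 and 47.2 CPM. It had the highest fold change of the arm, 1.44 ± 0.17 (adjusted p = 0.000599). Sqle (chr15:59315077-59331192), squalene epoxidase, had 143, 103 and 134 CPM against 54.9, 73.2 and 49.3 CPM, a change of 1.09 ± 0.19 (adjusted p = 0.00233). Lss (chr10:76531588-76557138), which closes the sterol rings to give lanosterol, had 85.0, 47.1 and 79.6 CPM against 31.9, 43.3 and 33.5 CPM, a change of 0.96 ± 0.23 (adjusted p = 0.0118). For Sqle and Lss the groups stood apart, although IL-6 KO replicate 2 was close to C57BL/6 replicate 2 in Lss. Only 36.1% of Lss reads mapped uniquely, over all libraries.

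Further down the chain, Hsd17b7 (chr1:169949535-169969241), the ketosteroid reductase of the demethylation steps, had 62.8, 53.0 and 69.1 CPM in the IL-6 KO-labelled libraries against 29.8, 22.6 and 21.5 CPM in C57BL/6. Each value was well above every C57BL/6 library, with a change of 1.32 ± 0.18 (adjusted p = 0.000997). Cyp51 (chr5:4081145-4104746), the lanosterol demethylase, had 145, 112 and 125 CPM against 75.0, 88.1 and 94.5 CPM, a change of 0.57 ± 0.15 (adjusted p = 0.0166). Nsdhl (chrX:72918557-72958514), the decarboxylating dehydrogenase of the same steps, had 39.1, 24.8 and 34.7 CPM against 18.7, 25.1 and 22.0 CPM. Its groups overlapped, since IL-6 KO replicate 2 lay below C57BL/6 replicate 2, and the change was 0.58 ± 0.20 (adjusted p = 0.0457). Sc5d (chr9:42251595-42264256), a late desaturase of the sterol ring, had 70.5, 66.2 and 67.4 CPM against 46.9, 55.8 and 51.7 CPM, a narrow but separate set of values with a change of 0.40 ± 0.13 (adjusted p = 0.0338).

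The other 10 sterol genes did not pass the test. They include the mevalonate kinases Mvk and Pmvk, the decarboxylase Mvd, the thiolase Acat2, farnesyl diphosphate synthase Fdps, squalene synthase Fdft1, the reductase Tm7sf2, the oxidase Msmo1, the isomerase Ebp and Dhcr7. Ebp was the most even of them, at 36.7, 37.4 and 36.9 CPM against 32.7, 35.9 and 35.9 CPM. Dhcr7 (chr7:143823145-143848410), the reductase that gives cholesterol itself, had the lowest fold change of the arm, −0.47 ± 0.21 (adjusted p = 0.101), from 49.3, 79.6 and 56.6 CPM against 86.2, 104 and 67.6 CPM. Replicate 2 of the IL-6 KO-labelled libraries lay inside the C57BL/6 range there.

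Calls of Idi1, Sqle, Lss and Hsd17b7 held under all 18 alternatives on exon reads, and those of the other 4 sterol genes did not. Hmgcs1 lost its call without IL-6 KO replicate 1 or 3, or without C57BL/6 replicate 3 (adjusted p = 0.0607 to 0.0672, and 0.00251 to 0.0672 over all alternatives). Cyp51 lost it without IL-6 KO replicate 1, or without C57BL/6 replicate 1 (adjusted p = 0.0635 and 0.0644, and 0.00339 to 0.0644 over all alternatives). Nsdhl lost it in 10 alternatives, among them without IL-6 KO replicate 1 or 3, without any one BALB/c library, and without C57BL/6 replicate 1 or 3 (adjusted p = 0.0512 to 0.158, and 0.00657 to 0.158 over all alternatives). Sc5d lost it in 9, among them without IL-6 KO replicate 1 or 3, without BALB/c replicate 2 or 3, and without C57BL/6 replicate 1 or 3 (adjusted p = 0.0511 to 0.118, and 0.0183 to 0.118 over all alternatives). The number of sterol genes called was 5 without IL-6 KO replicate 3, C57BL/6 replicate 1 or C57BL/6 replicate 3, and 4 without IL-6 KO replicate 1. It was 11, with 10 higher and 1 lower, without IL-6 KO replicate 2.

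**Figure D2:**
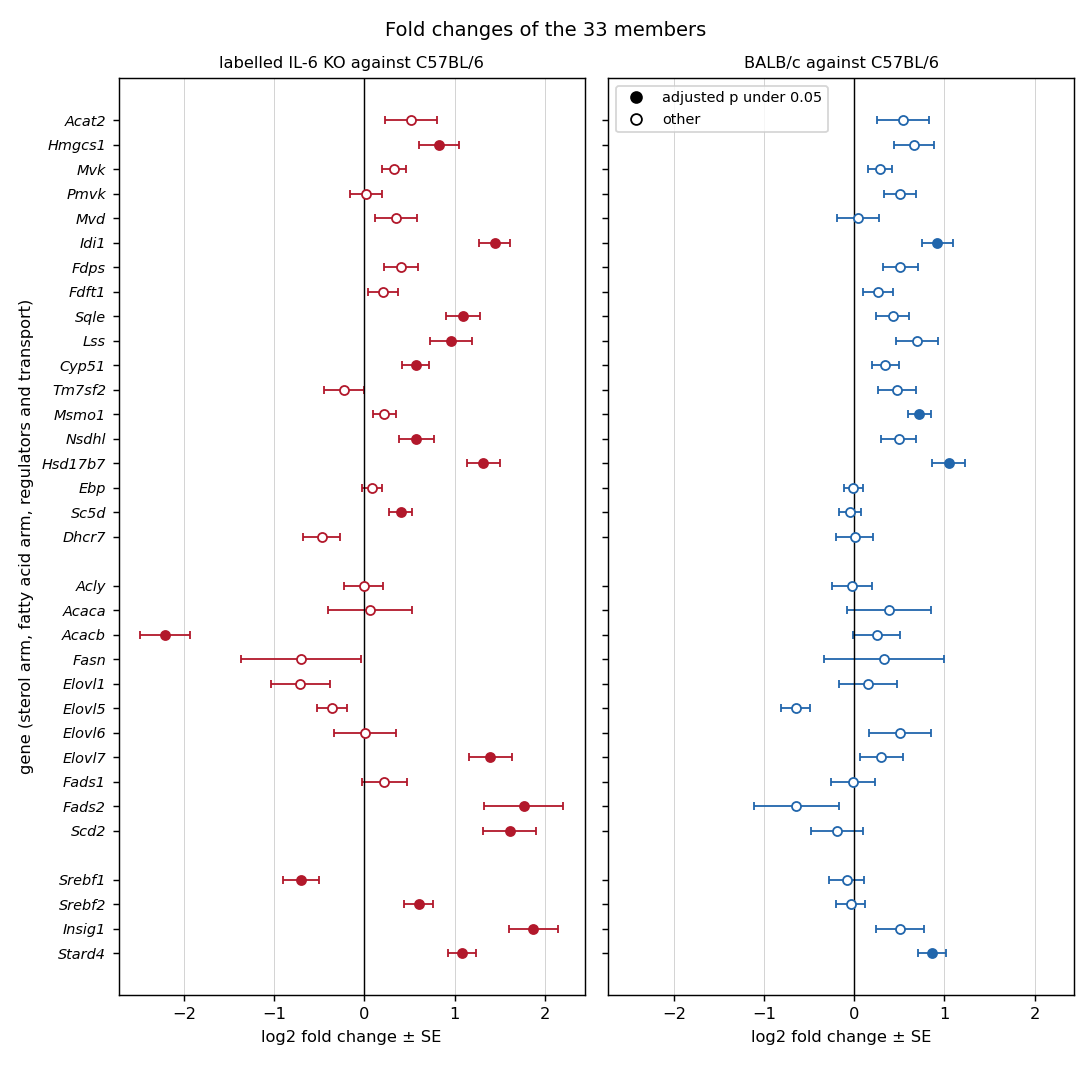
Log2 fold change ± SE of each member from edgeR, for the IL-6 KO-labelled libraries (left) and BALB/c (right) against C57BL/6; filled points had an adjusted p under 0.05. In the left panel 14 members are filled to the right of 0 and 2 to the left, and in the right panel 4 are filled, all to the right.

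In the fatty acid arm the desaturases Scd2 and Fads2 and the elongase Elovl7 were called higher, and the carboxylase Acacb was called lower. Acacb (chr5:114146535-114250761), the acetyl-CoA carboxylase at mitochondria whose malonyl-CoA restrains fatty acid oxidation, had 31.4, 58.5 and 36.0 CPM in the IL-6 KO-labelled libraries against 174, 179 and 232 CPM in C57BL/6. All 3 values were under every other library, and the change was −2.21 ± 0.28 (adjusted p = 0.000687), the lowest of the 33 members. Acacb is abundant in skeletal muscle and fat, and the muscle and adipocyte marker sums given above were lower in the same libraries; their part in this result was not tested.

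Scd2 (chr19:44293676-44306864), a stearoyl-CoA desaturase, had 600.3, 245 and 555 CPM in the IL-6 KO-labelled libraries against 162, 166 and 129.9 CPM in C57BL/6. The change was 1.61 ± 0.29 (adjusted p = 0.00327), with IL-6 KO replicate 2 much nearer to C57BL/6 than the others. Fads2 (chr19:10064164-10101503), the desaturase that starts polyunsaturated chain synthesis, had 19.8, 7.11 and 28.0 CPM against 6.14, 5.21 and 4.63 CPM, a change of 1.77 ± 0.44 (adjusted p = 0.0128). Elovl7 (chr13:108214404-108287105), an elongase of saturated and polyunsaturated long chains, had 91.3, 101.2 and 88.8 CPM against 36.8, 48.1 and 21.7 CPM, a change of 1.40 ± 0.24 (adjusted p = 0.00236). These 3 sets of values stood apart from C57BL/6, and in Elovl7 replicate 2 was the highest. Fads2 was no longer called without IL-6 KO replicate 3, or without C57BL/6 replicate 3 (adjusted p = 0.0589 and 0.0522, and 0.000320 to 0.0589 over all alternatives), while the calls of Acacb, Scd2 and Elovl7 held in all 18.

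The genes of the core synthesis reaction were not called. Fasn (chr11:120805846-120824547), fatty acid synthase, had 306, 462 and 309 CPM in the IL-6 KO-labelled libraries against 337, 682 and 731 CPM in C57BL/6, a difference of −0.70 ± 0.67 (adjusted p = 0.441). Acaca (chr11:84129672-84401651), the cytosolic carboxylase, had 116, 129 and 112 CPM against 89.7, 106 and 145 CPM, within each other's range (0.066 ± 0.46, adjusted p = 0.927). Acly, the lyase that makes cytosolic acetyl-CoA, ran from 182 to 204 CPM against 150.2 to 249 CPM. Elovl1, an elongase of very long saturated chains, had 95.0, 219 and 86.2 CPM against 221, 259 and 175 CPM. Its difference was −0.71 ± 0.33 (adjusted p = 0.118) with all libraries, and −1.27 ± 0.18 (adjusted p = 0.000766) without IL-6 KO replicate 2. The range of that adjusted p over all alternatives was 0.000766 to 0.327. The remaining members, Elovl5, Elovl6 and Fads1, overlapped with C57BL/6 in at least 1 library. Without IL-6 KO replicate 2 the arm had 6 called genes, 4 higher and 2 lower, where 6698 of all 14415 genes were called.

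All 4 genes of regulation and transport were called in this comparison. Insig1 (chr5:28071363-28078662), which retains SREBP in the endoplasmic reticulum and is itself a target of SREBP, had 218, 102 and 178 CPM in the IL-6 KO-labelled libraries against 42.0, 50.002 and 43.9 CPM in C57BL/6. Its change of 1.87 ± 0.27 was the highest of the 33 members (adjusted p = 0.00117). Stard4, a carrier of cholesterol between membranes, had 75.2, 59.5 and 56.1 CPM against 30.4, 33.8 and 25.6 CPM, a change of 1.08 ± 0.16 (adjusted p = 0.00113). Both calls held in all 18 alternatives.

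The pair of SREBP genes had opposite signs. Srebf2 (chr15:82147266-82205376) had 201, 134 and 185 CPM in the IL-6 KO-labelled libraries against 116, 115 and 112 CPM in C57BL/6 (0.60 ± 0.16, adjusted p = 0.0197). Srebf1 (chr11:60199089-60222581) had 110.0, 118 and 100.8 CPM against 159, 197 and 180 CPM (−0.71 ± 0.20, adjusted p = 0.0221). Neither pair of groups overlapped. Srebf2 was no longer called without IL-6 KO replicate 1 or 3, or without C57BL/6 replicate 1 or 3 (adjusted p = 0.0553 to 0.0743, and 0.00174 to 0.0743 over all alternatives). Srebf1 was no longer called without IL-6 KO replicate 1 or 3, or without C57BL/6 replicate 2 or 3 (adjusted p = 0.0531 to 0.0851) and when scaled by library size alone (adjusted p = 0.0687), within a range of 0.00503 to 0.0851 over all alternatives.

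Within the group, IL-6 KO replicate 2 was the library nearest to the C57BL/6 mean in 14 of the 16 called members. The like share over all called genes was not counted. Over all genes compared, replicate 2 was also the nearest of the 3 to each C57BL/6 library. Its chi-square per degree of freedom was 64.3 to 99.3, against 128 to 157 for replicate 1 and 114 to 145 for replicate 3. That nearness was thus not particular to the members. IL-6 KO replicate 2 also had the lowest hair shaft and proliferation sums and the highest white adipocyte sum of the 3. The part of those cells in its position was not tested.

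The promoters of 4 members are shown because they include the gene with the highest fold change in the sterol arm and in the regulators, and the member that holds the sterol element searched for; they were chosen after the values were seen. Each run is the 250 bases before the RefSeq start in GRCm38.p6, 5′ to 3′ on the gene's strand, and RefSeq starts can differ from the deposited gene starts. The windows are chr13:119690101-119690350 on the + strand for Hmgcs1, chr13:8885356-8885605 on the + strand for Idi1, chr1:169969206-169969455 on the - strand for Hsd17b7, and chr5:28071162-28071411 on the + strand for Insig1. Capitals mark CCAAT on either strand, read as ATTGG where it lies on the other strand, and the sterol element.
Hmgcs1: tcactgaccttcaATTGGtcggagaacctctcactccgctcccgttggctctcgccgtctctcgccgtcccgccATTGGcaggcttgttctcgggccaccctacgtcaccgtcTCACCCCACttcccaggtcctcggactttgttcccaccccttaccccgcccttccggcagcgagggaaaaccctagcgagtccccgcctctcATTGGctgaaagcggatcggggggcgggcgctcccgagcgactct
Idi1: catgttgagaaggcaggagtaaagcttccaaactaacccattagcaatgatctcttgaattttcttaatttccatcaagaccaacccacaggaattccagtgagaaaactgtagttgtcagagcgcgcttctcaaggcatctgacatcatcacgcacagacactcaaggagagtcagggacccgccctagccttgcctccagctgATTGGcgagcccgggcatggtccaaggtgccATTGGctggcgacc
Hsd17b7: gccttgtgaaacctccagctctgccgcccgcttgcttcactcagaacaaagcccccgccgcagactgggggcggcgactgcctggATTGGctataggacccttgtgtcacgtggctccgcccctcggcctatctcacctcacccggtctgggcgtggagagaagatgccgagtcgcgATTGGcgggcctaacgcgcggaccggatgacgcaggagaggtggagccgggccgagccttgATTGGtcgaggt
Insig1: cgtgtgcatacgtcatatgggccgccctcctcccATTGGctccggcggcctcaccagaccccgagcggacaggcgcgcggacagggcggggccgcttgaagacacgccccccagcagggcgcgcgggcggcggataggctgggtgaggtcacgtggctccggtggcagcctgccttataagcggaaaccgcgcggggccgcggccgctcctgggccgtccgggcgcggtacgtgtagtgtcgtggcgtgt
CCAAT is the box bound by NF-Y, a factor that works beside SREBP. The Hmgcs1 window held 3 CCAAT boxes and, 137 bases before the start, the sterol element. Idi1 held 2 boxes, the nearer 14 bases before the start, Hsd17b7 held 3, and Insig1 held 1.

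The search covered the 300 bases from 250 before to 50 after the start, on both strands, in the 27 members that RefSeq's promoter table matched. CCAAT was present in 14 of 15 sterol genes, 5 of 9 fatty acid genes and all 3 regulators, where 41.1% of all 27025 genes in the table and 42.3% of the tested ones held it. The sterol element TCACNCCAC was present in Hmgcs1 and in no other member, against 1.44% of all genes. The E-box CACGTG was present in 3 of the 15 sterol genes (Hsd17b7, Sc5d and Dhcr7), 1 of the 9 fatty acid genes (Elovl5) and 1 of the 3 regulators (Insig1), against 8.09% of all genes. The sterol element and the E-box can share letters at their edges. A match describes the letters in this window and is not a measured binding site.

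Genes of the same pathways outside the 33 members were read from a list of 40, of which 36 were tested. Against C57BL/6, 8 of them were higher and 8 lower, where 19.2% of all genes tested were higher and 16.0% lower. Elovl3, an elongase of sebaceous gland and hair follicle, had 73.6, 41.9 and 84.9 CPM against 10.4, 12.2 and 9.08 CPM (2.65 ± 0.30, adjusted p = 0.000522). Gpam, the acyltransferase that begins glycerolipid synthesis, was lower by the same test (−1.41 ± 0.21, adjusted p = 0.00140). Mlxipl, which encodes the carbohydrate-responsive factor ChREBP, had 13.2, 24.8 and 13.6 CPM against 63.0, 69.2 and 84.9 CPM (−2.06 ± 0.33, adjusted p = 0.00168). All 3 kept their calls in the 18 alternatives.

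**Figure D3:**
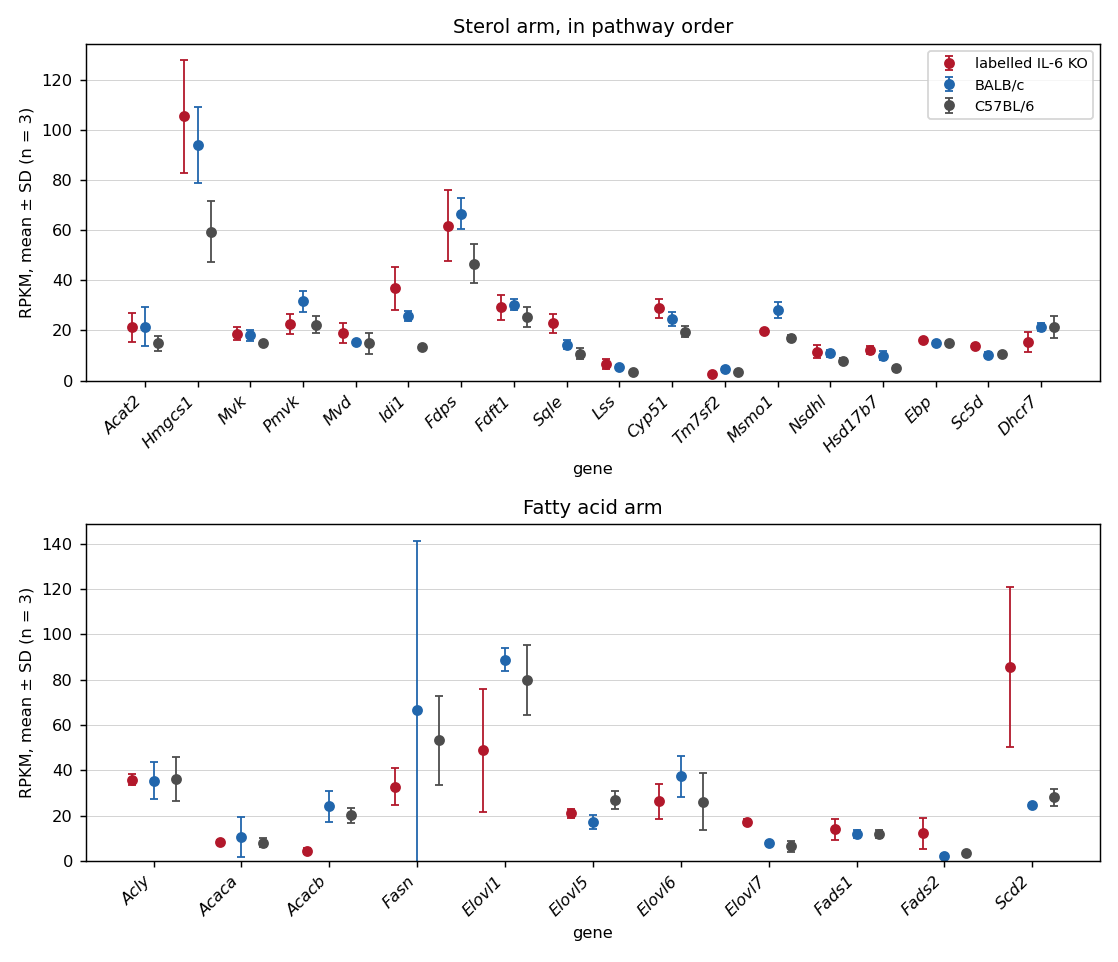
Level per kilobase of exon (RPKM) of each sterol gene (top) and fatty acid gene (bottom), as mean ± SD over the 3 libraries of each group. Hmgcs1 and Fdps lead the sterol arm in all groups, Scd2 leads the fatty acid arm in the IL-6 KO-labelled libraries, and the SD of Fasn in BALB/c is larger than its mean.

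Per length of transcript, Hmgcs1 was the most abundant sterol gene in each group, at 106 ± 22.6 RPKM in the IL-6 KO-labelled libraries, 93.9 ± 15.2 in BALB/c and 59.5 ± 12.3 in C57BL/6 (SD, n = 3). Fdps came next at 61.9 ± 14.1 RPKM in the IL-6 KO-labelled libraries, 66.7 ± 6.28 in BALB/c and 46.7 ± 7.76 in C57BL/6, although 39.1% of its reads mapped uniquely, over all libraries. Tm7sf2 was the least abundant, at 2.75 ± 0.0370 RPKM in the IL-6 KO-labelled libraries, 4.47 ± 1.10 in BALB/c and 3.23 ± 0.438 in C57BL/6. In the fatty acid arm Scd2 averaged 85.6 ± 35.5 RPKM in the IL-6 KO-labelled libraries, against 24.6 ± 0.873 in BALB/c and 28.0 ± 3.65 in C57BL/6. Elovl1 led that arm in the strains, at 88.9 ± 5.21 RPKM in BALB/c and 80.0 ± 15.4 in C57BL/6, against 48.9 ± 27.2 in the IL-6 KO-labelled libraries. Scd2 made up 28.0% of the arm's summed RPKM in the IL-6 KO-labelled libraries, 8.04% in BALB/c and 9.41% in C57BL/6.

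The sum over the 18 sterol genes was 523, 390 and 481 RPKM in the IL-6 KO-labelled libraries, 489, 400.3 and 454 RPKM in BALB/c, and 303, 364 and 308 RPKM in C57BL/6. Every library of the first 2 groups was above every C57BL/6 library. The sum over the 11 fatty acid genes was 304, 311 and 305 RPKM in the IL-6 KO-labelled libraries, 448, 255 and 278 RPKM in BALB/c, and 266, 355 and 281 RPKM in C57BL/6. Those values overlapped among all 3 groups. The ratio of the sterol to the fatty acid sum, in which scaling factors cancel, was 1.72, 1.25 and 1.58 in the IL-6 KO-labelled libraries. It was 1.09, 1.57 and 1.63 in BALB/c, against 1.14, 1.02 and 1.10 in C57BL/6. BALB/c replicate 1 lay inside the C57BL/6 range, and the other 5 libraries lay above it.

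Single genes weigh on that ratio. Leaving Scd2 out of the sum gave a ratio of 2.18 ± 0.639 in the IL-6 KO-labelled libraries, 1.56 ± 0.357 in BALB/c and 1.20 ± 0.0818 in C57BL/6 (SD, n = 3). With all members it was 1.52 ± 0.239 in the IL-6 KO-labelled libraries, 1.43 ± 0.296 in BALB/c and 1.09 ± 0.0584 in C57BL/6. Leaving Fasn out gave 1.70 ± 0.225 in the IL-6 KO-labelled libraries, 1.73 ± 0.0703 in BALB/c and 1.32 ± 0.101 in C57BL/6. Without Fasn, the 3 BALB/c ratios lay between 1.66 and 1.80, and all 6 libraries of the other groups were above the C57BL/6 range of 1.24 to 1.44.

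**Figure D4:**
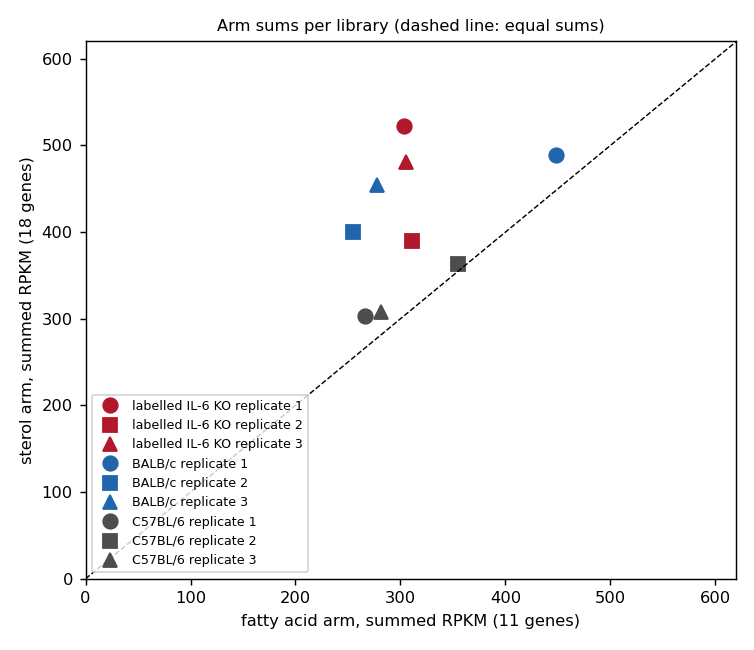
Summed RPKM of the 18 sterol genes against that of the 11 fatty acid genes, 1 point per library, with a dashed line at equal sums. The C57BL/6 libraries lie near the line, BALB/c replicate 1 lies to the right at 448 RPKM on the fatty acid axis, and the other 5 libraries lie above the line.

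Between BALB/c and C57BL/6, few members were called, and those were in the sterol arm and in sterol transport. Of the 18 sterol genes 3 were higher and none lower. At an unadjusted p under 0.05, edgeR gave 10 higher and none lower, where 2789 of all 14415 genes tested passed in either direction. DESeq2 after adjustment gave 3 higher and none lower, where it called 1033 genes in all. None of the 11 fatty acid genes was called; at an unadjusted p under 0.05 the count was none higher and 1 lower, and DESeq2 called 1, Elovl5. Stard4 was the single regulation and transport gene called. Together 4 of 33 members were called, where 3.41% of all genes tested were called, 1.63% higher and 1.78% lower. The median log2 fold change was 0.48 over the sterol arm and 0.15 over the fatty acid arm, beside −0.0088 over all genes. With library size alone as the scale, 58.6% of all calls were higher, beside 47.9% with TMM.

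Hsd17b7 had 51.6, 42.0 and 59.4 CPM in BALB/c against 29.8, 22.6 and 21.5 CPM in C57BL/6 (1.05 ± 0.18, adjusted p = 0.0152). Idi1 had 97.7, 87.1 and 85.0 CPM against 45.6, 49.6 and 47.2 CPM (0.92 ± 0.17, adjusted p = 0.0226). Neither set of values overlapped with C57BL/6. Msmo1 (chr8:64718139-64733792), the methylsterol oxidase, had 178, 151 and 189 CPM against 96.0, 110.3 and 107 CPM (0.72 ± 0.13, adjusted p = 0.0152), again with no overlap. Stard4 had 49.6, 57.1 and 56.5 CPM against 30.4, 33.8 and 25.6 CPM (0.86 ± 0.15, adjusted p = 0.0184). Elovl5, an elongase of polyunsaturated chains, had 72.8, 55.4 and 53.6 CPM against 95.9, 109 and 80.4 CPM, lower in each library without passing the test (−0.65 ± 0.16, adjusted p = 0.0682, and 0.0183 to 0.232 over all alternatives).

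None of the 4 calls held in all 18 alternatives. The Idi1 call ended whichever BALB/c or C57BL/6 library was left out (adjusted p = 0.0619 to 0.0808, and 0.000184 to 0.0808 over all alternatives). Hsd17b7 was no longer called without BALB/c replicate 1 or 3, or without C57BL/6 replicate 2 or 3 (adjusted p = 0.0509 to 0.0730, and 7.57e-05 to 0.0730 over all alternatives). Msmo1 was no longer called without BALB/c replicate 3, or without C57BL/6 replicate 1 or 3 (adjusted p = 0.0508 to 0.0759, and 4.36e-06 to 0.0759 over all alternatives). Stard4 was no longer called without BALB/c replicate 2 or 3, or without C57BL/6 replicate 1 or 3 (adjusted p = 0.0660 to 0.0846, and 0.000180 to 0.0846 over all alternatives). The number of sterol genes called was 1 without BALB/c replicate 1, C57BL/6 replicate 1 or C57BL/6 replicate 2, and 0 without BALB/c replicate 3, or without C57BL/6 replicate 3. All genes called fell from 491 of 14415 with every library to 172 to 296 in these fits. One fatty acid gene, Elovl5, was called without IL-6 KO replicate 2 (adjusted p = 0.0456), where 946 of all 14415 genes were called.

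Of the 36 related genes tested, 3 were higher and 1 lower in BALB/c, where 1.63% of all genes tested were higher and 1.78% lower. Elovl3 had 50.2, 30.4 and 31.2 CPM against 10.4, 12.2 and 9.08 CPM in C57BL/6 (1.81 ± 0.30, adjusted p = 0.0129). It was no longer called without C57BL/6 replicate 1 or 3 (adjusted p = 0.0539 and 0.0600, and 3.53e-06 to 0.0600 over all alternatives).

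BALB/c replicate 1 stood apart in Fasn and Acaca of the fatty acid arm. Fasn had 1671 CPM there, against 247 and 277 CPM in BALB/c replicates 2 and 3 and 337, 682 and 731 CPM in C57BL/6. Acaca had 290.4 CPM there, against 78.5 and 76.1 CPM in replicates 2 and 3. This library was the highest of all 9 in 4 of the 11 fatty acid genes (Acaca, Acacb, Fasn and Elovl6), in 3 of the 18 sterol genes (Acat2, Pmvk and Tm7sf2), and in Srebf1. How often it was highest over all genes tested was not counted, so these counts are not read as a trait of either arm. For Fasn the difference of BALB/c from C57BL/6 was 0.33 ± 0.66 (adjusted p = 0.832) with the library and −1.14 ± 0.34 (adjusted p = 0.160) without it. For Acaca it was 0.38 ± 0.46 (adjusted p = 0.700) with the library and −0.54 ± 0.20 (adjusted p = 0.237) without it. The adjusted p over all alternatives was 0.160 to 0.988 for Fasn and 0.237 to 0.888 for Acaca.

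Fat cell markers were high in the same library. The 15 white adipocyte markers summed to 20458 CPM in BALB/c replicate 1, against 8861 and 8050 CPM in replicates 2 and 3 and 7769 to 11153 CPM in C57BL/6. Brown adipocyte markers, listed after the data were seen, summed to 1467 CPM against 342 and 340 CPM in BALB/c replicates 2 and 3 and 196 to 343 CPM in C57BL/6. Ucp1, the uncoupling protein that defines brown fat, had 764, 1.16 and 16.2 CPM in BALB/c replicates 1, 2 and 3 and no read in any library of the other groups. The sebocyte markers summed to 6677 CPM in that library and 2177 and 2543 CPM in the other BALB/c libraries. Scd1, a desaturase that fat cells also express, made up 4661 CPM of the 6677 CPM, against 929.8 and 969.8 CPM in replicates 2 and 3. Cidea, at 240.2 CPM against 20.6 and 40.5 CPM, and Plin5, at 54.0 CPM against 11.6 and 6.80 CPM, are in the brown adipocyte list too. The other sebocyte markers went different ways. Elovl3, Fa2h, Acsbg1, Fabp5, Pparg, Mgst1 and Apoc1 were highest in replicate 1 of the 3 BALB/c libraries. Awat1, Awat2, Dgat2l6 and Scd3 were lowest there, and Far2, Krt79, Mc5r, Soat1 and Gal lay between replicates 2 and 3. The part of these cells in the Fasn and Acaca values was not tested.

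**Figure D5:**
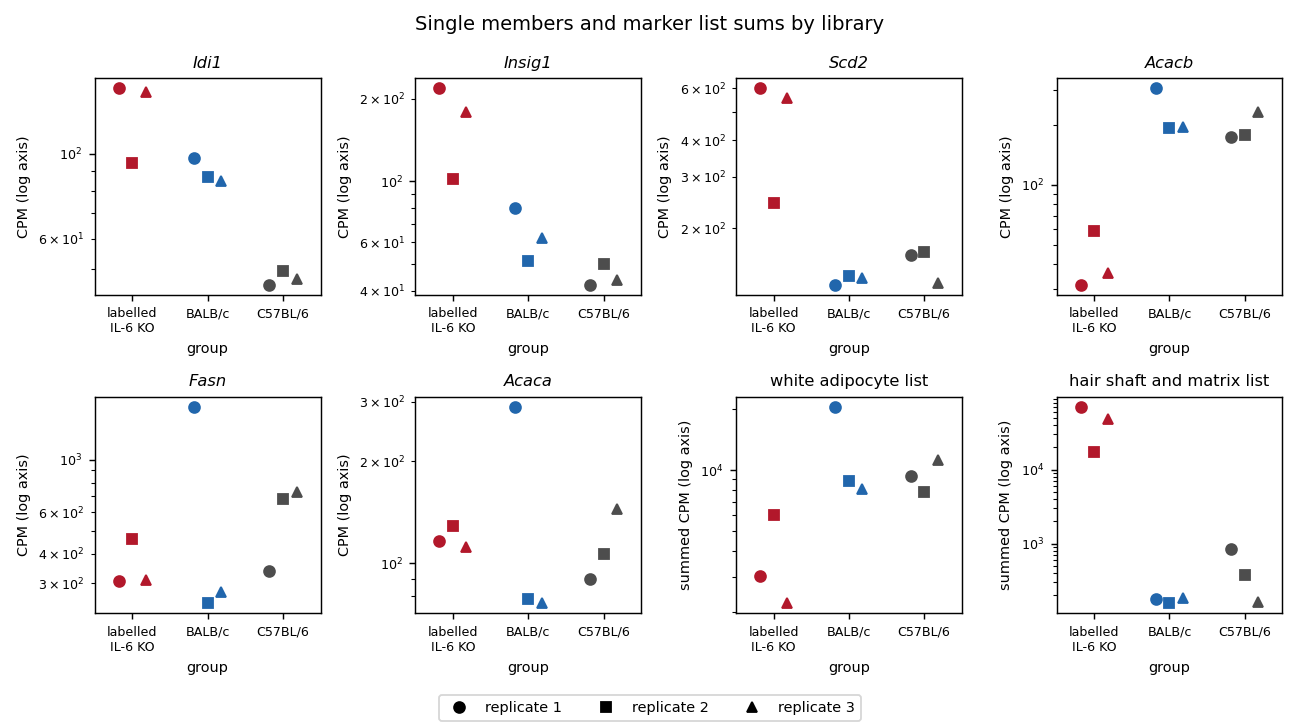
CPM of 6 members and summed CPM of 2 marker lists in each library, by group, on log axes; symbols give the replicate. The libraries labelled IL-6 KO are highest in Idi1, Insig1, Scd2 and the hair list, with 1 exception for Idi1, where BALB/c replicate 1 at 97.7 CPM is above IL-6 KO replicate 2 at 94.5 CPM; they are lowest in Acacb, and BALB/c replicate 1 is highest in Fasn, Acaca and the white adipocyte list.

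Set against BALB/c, the IL-6 KO-labelled libraries had called genes of both directions in both arms. Of the 18 sterol genes 3 were higher (Idi1, Sqle and Sc5d) and 2 lower (Msmo1 and Tm7sf2), and of the 11 fatty acid genes 3 were higher and 1 lower. In all 12 members were called, where 37.3% of all genes tested were called, 19.9% higher and 17.4% lower. The median log2 fold change was 0.089 over the sterol arm and 0.017 over the fatty acid arm, beside 0.011 over all genes. Marker genes of other cells moved here too: 24 of 25 hair shaft and matrix markers and 12 of 12 proliferation markers were higher, and 14 of 15 skeletal muscle, 7 of 15 white adipocyte and 5 of 8 brown adipocyte markers were lower. Of 18 sebocyte markers 2 were higher and 7 lower. The muscle sum was 11631 to 13167 CPM in the IL-6 KO-labelled libraries against 33224 to 69163 CPM in BALB/c, and the white adipocyte sum was 2216 to 6030 CPM against 8050 to 20458 CPM. The hair sum was 17001 to 70391 CPM against 156 to 186 CPM. The part of these cells in the values that follow, Acacb, Scd2 and Scd3 among them, was not tested. This comparison shares its libraries with the other two, so its values are given side by side with theirs and not as separate support.

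Fads2 had 19.8, 7.11 and 28.0 CPM in the IL-6 KO-labelled libraries against 2.86, 4.48 and 2.91 CPM in BALB/c (2.41 ± 0.46, adjusted p = 0.00374). Scd2 had 600.3, 245 and 555 CPM against 129, 138 and 136 CPM (1.80 ± 0.30, adjusted p = 0.00191). Elovl7 had 91.3, 101.2 and 88.8 CPM against 43.5, 40.7 and 47.6 CPM (1.09 ± 0.24, adjusted p = 0.00681). Acacb had 31.4, 58.5 and 36.0 CPM against 307, 193 and 196 CPM (−2.46 ± 0.28, adjusted p = 0.000456). The groups stood apart in each of these 4 genes, and their calls held in all 18 alternatives. Among regulators Insig1 was higher (218, 102 and 178 CPM against 80.2, 51.1 and 62.3 CPM; 1.36 ± 0.27, adjusted p = 0.00437), and this call also held in all of them.

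Sqle had 143, 103 and 134 CPM in the IL-6 KO-labelled libraries against 77.7, 71.4 and 89.7 CPM in BALB/c (0.67 ± 0.18, adjusted p = 0.0196). Sc5d had 70.5, 66.2 and 67.4 CPM against 57.03, 47.0 and 45.5 CPM (0.45 ± 0.13, adjusted p = 0.0212). Both stood apart, while Idi1 overlapped and was the least firm call, at 0.52 ± 0.17 (adjusted p = 0.0378). Msmo1 had 123, 121 and 121 CPM against 178, 151 and 189 CPM (−0.50 ± 0.13, adjusted p = 0.0128). Tm7sf2 (chr19:6062821-6068373), a sterol reductase, had 9.50, 9.55 and 9.74 CPM against 19.7, 12.1 and 14.9 CPM (−0.70 ± 0.22, adjusted p = 0.0313). Neither overlapped. Srebf2 was higher (0.64 ± 0.16, adjusted p = 0.0145) and Srebf1 lower (−0.62 ± 0.20, adjusted p = 0.0342), from the CPM given above for the IL-6 KO-labelled libraries against 101.2, 107 and 126 CPM and 224, 132 and 151 CPM in BALB/c.

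These 7 calls did not hold throughout. Without IL-6 KO replicate 1, the adjusted p was 0.130 for Idi1, 0.0705 for Sqle, 0.0635 for Sc5d, 0.0795 for Tm7sf2, 0.0868 for Srebf1 and 0.0554 for Srebf2. Without IL-6 KO replicate 3, it was 0.138 for Idi1, 0.0682 for Sqle, 0.0610 for Sc5d, 0.0510 for Msmo1, 0.0843 for Tm7sf2, 0.118 for Srebf1 and 0.0576 for Srebf2. Without BALB/c replicate 1, it was 0.0568 for Idi1, 0.0602 for Sqle, 0.0940 for Tm7sf2, 0.0832 for Srebf1 and 0.0533 for Srebf2. Without BALB/c replicate 2, it was 0.114 for Idi1, 0.0824 for Sqle, 0.0877 for Sc5d and 0.0601 for Srebf2. Without BALB/c replicate 3, it was 0.116 for Idi1, 0.0888 for Sc5d and 0.0596 for Tm7sf2, and Idi1 was also lost without each C57BL/6 library (0.0510 to 0.0598). The highest adjusted p over all alternatives was 0.138 for Idi1, 0.118 for Srebf1, 0.0940 for Tm7sf2, 0.0888 for Sc5d, 0.0824 for Sqle, 0.0601 for Srebf2 and 0.0510 for Msmo1. The number of sterol genes called was 0 without IL-6 KO replicate 3, 1 without IL-6 KO replicate 1, 2 without any one BALB/c library, and 8 without IL-6 KO replicate 2. All genes called numbered 5370 of 14415 with every library, and 6930 without IL-6 KO replicate 2. They numbered 3310 without IL-6 KO replicate 3, 3618 without IL-6 KO replicate 1, and 3755 to 4368 without any one BALB/c library.

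Of the 36 related genes 8 were higher and 10 lower in the IL-6 KO-labelled libraries than in BALB/c. Of all genes tested 19.9% were higher and 17.4% lower. Scd3, a desaturase of the sebaceous gland, was lower (−2.97 ± 0.36, adjusted p = 0.000531), and Abcg1, an exporter of cellular cholesterol, was higher (1.64 ± 0.23, adjusted p = 0.000950). Both calls held in all 18 alternatives.

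Intron reads, which include unspliced transcripts, were counted separately by the authors and gave a thinner second readout, chosen after the data were seen. Over introns 16 sterol genes, 11 fatty acid genes and 3 regulators had enough reads to test. In the IL-6 KO-labelled libraries against C57BL/6, 2 sterol genes were higher (Hsd17b7 and Acat2) and none lower, 3 fatty acid genes were higher (Fads2, Elovl7 and Scd2) and 1 lower (Acacb), and 1 regulator was higher (Insig1), where 23.6% of the 10378 genes tested on introns were called. Acacb changed by −1.77 ± 0.32 (adjusted p = 0.00105), Fads2 by 2.62 ± 0.47 (adjusted p = 0.00102), Scd2 by 1.91 ± 0.42 (adjusted p = 0.00402) and Elovl7 by 2.08 ± 0.35 (adjusted p = 0.000549). Insig1 changed by 2.19 ± 0.37 (adjusted p = 0.000613) and Hsd17b7 by 2.37 ± 0.47 (adjusted p = 0.00209). The Hsd17b7 introns held 15, 11 and 24 reads in the IL-6 KO-labelled libraries against 3, 3 and 5 reads in C57BL/6. Sqle, with 0.62 ± 0.27 (adjusted p = 0.105), and Srebf2, with 0.18 ± 0.21 (adjusted p = 0.581), were not called on introns. In BALB/c against C57BL/6, the single member called on introns was Mvk (0.88 ± 0.22, adjusted p = 0.0291), higher in BALB/c, where 6.50% of genes were called (3.58% higher, 2.92% lower).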

How the data were processed

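Per the labels, skin RNA was extracted with Tri-Reagent and sequenced from TruSeq libraries. The authors deposited counts of reads per gene for each library (total exon, unique exon and intron reads), with exon lengths, per the file headers. The genome build is GRCm38, per the submitters' processing notes; how reads were aligned, counted and assigned to strands is not given in the sources used here, so reads of overlapping and antisense genes cannot be told apart. One C57BL/6 file stacks 3 tables; its first was read, since the later 2 repeat other replicates. The deposited table's positions were used for genes.

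Total exon counts of all 9 libraries were fitted in 1 model with edgeR 4.0.16 (R 4.3.3): filterByExpr (minimum count 10, minimum total 15), TMM, quasi-likelihood F test, Benjamini-Hochberg adjustment over 14415 genes. The fit was tested on simulated counts. SE is the log2 fold change over the square root of F. RPKM was computed from total exon counts, TMM-scaled library totals and deposited exon length. Alternatives were RLE and library-size scaling, scaling without muscle and hair genes, no filter, a robust fit, DESeq2 1.42.0, only the groups compared, unique reads, a replicate block, and leaving out each library. Libraries of a group differed beyond counting error (chi-square per degree of freedom 4.35 to 47.2). Members and gene lists were chosen with earlier results of these data known; library values are given for members called, and up to 4 called genes of the related list, by p; some of these are not reported here.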

Additional observations from a re-analysis of the deposited data

How the results depend on the processing

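Of the 16 members called in the IL-6 KO-labelled libraries against C57BL/6, 9 kept their call under all 18 alternatives on exon reads; 0 of 4 did so between BALB/c and C57BL/6, and 5 of 12 between the IL-6 KO-labelled libraries and BALB/c. No called member changed sign. Among members not called, 4 of 17, 10 of 29 and 8 of 21 changed sign in those comparisons, so no direction is read from them. With library size alone, DESeq2, RLE, no filter or the robust fit, the sterol and fatty acid counts stayed within 1.5 times, except that DESeq2 called 1 fatty acid gene in BALB/c against C57BL/6 and 1033 genes in all, beside 491 with edgeR.

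Counts that moved further follow. On intron reads the sterol genes called were 2 between the IL-6 KO-labelled libraries and C57BL/6, 1 between BALB/c and C57BL/6, and 2 between the IL-6 KO-labelled libraries and BALB/c, with 2445 and 2440 genes called in all in the comparisons of the IL-6 KO-labelled libraries; fewer reads and genes entered that fit. Fitting only the groups compared gave 3 sterol genes for the IL-6 KO-labelled libraries against BALB/c. Deviations of same-numbered libraries from their group means had correlations of −0.21 to 0.06 over 9 pairs, against −0.092 to 0.14 over 18 other pairs. With group means of 3 libraries taken out, such correlations cannot show whether the numbers pair the samples. With a replicate block, BALB/c against C57BL/6 had 1 sterol gene and 255 genes called, and its Fasn fold change was −0.042. Leaving out 1 library at a time gave the following ranges. The sterol count was 4 to 11, 0 to 4 and 0 to 8 in the comparisons as listed above, the fatty acid count 3 to 6, 0 to 1 and 4 to 6, and the count of all genes 3257 to 6698, 172 to 946 and 3310 to 6930. The sterol to fatty acid ratio ran from 1.42 to 1.65 in the IL-6 KO-labelled libraries, 1.33 to 1.60 in BALB/c and 1.06 to 1.12 in C57BL/6. Among the fold changes printed for members not called, those that reversed in this way were Fasn (−1.14 to 0.75) and Acaca (−0.54 to 0.70) in BALB/c against C57BL/6, both lowest without BALB/c replicate 1, and Acaca (−0.085 to 0.26) in the IL-6 KO-labelled libraries against C57BL/6, lowest without C57BL/6 replicate 1. The ratio also moved without Scd2 (2.18 in the IL-6 KO-labelled libraries, 1.20 in C57BL/6), without Fasn (1.32 in C57BL/6) and with unique reads (0.941 in C57BL/6). Except where said, the cause was not tested.

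Lss, Fdps and Mvd had 36.1%, 39.1% and 55.5% of their reads mapped uniquely, and shared reads of near-identical copies are not separated in the other counts.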
